A study of Mus musculus with 2197 samples.

Results

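Ins1-RFP+ cells from cultured mouse pancreas explants were compared between explants grown with U0126, an inhibitor of the kinases MEK1 and MEK2, and control explants. The members were every Smart-seq2 cell that the labels assign to these 2 groups, 60 cells with U0126 and 58 control cells, of 2195 Smart-seq2 cells in the series. Each group fell into 4 sets, and the sets were paired by the number, 1 to 4, that both groups carry. The control sets held 8, 12, 18 and 20 cells and the U0126 sets 7, 13, 20 and 20.

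Both groups came from Ins1-RFP transgenic embryos, which carry a red fluorescent reporter named for the insulin gene Ins1. Per the labels, dorsal pancreata were taken at E13.0, cultured several to a membrane in serum-containing medium for 2 days and then dissociated, and 1 group received 10 µM U0126. The labels name no vehicle for the controls and do not say what a set is, so each p-value reflects how far sets vary, and that variation could be technical. The pancreata of a membrane were cultured together and no embryo is named, and every cell had passed the same reporter gate, so cells that did not reach Ins1 expression are not represented. The series states that these explants were made to ask whether the ERK pathway represses endocrine differentiation.

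MEK1 and MEK2 phosphorylate the kinases ERK1 and ERK2, the last step of a cascade that growth factor receptors start through Ras and Raf. Active ERK induces immediate early genes such as Fos and Egr1, and feedback inhibitors such as the Sprouty proteins and dual-specificity phosphatases, which are widely used as a readout of the pathway. In the embryonic pancreas, endocrine cells arise from progenitors that transiently express Neurog3, and young beta cells take on the large secretory load of insulin.

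The sorted cells carried beta cell markers in both groups. Ins1 and Ins2 each reached 100 CPM (read counts scaled to a common library size) in 118 of 118 cells, and the lowest cell had 8907 CPM of the pair together. Ins1 and Ins2 are near-identical copies, and the counting may have split their reads. Mafa, which marks mature beta cells, was at or below 3.79 CPM in every set. Glucagon (Gcg) reached 100 CPM in 0 of 58 control and 0 of 60 U0126 cells, which allows shares of up to 5.17% and 5.00%, for counting error only. The same counts held for Mki67, a proliferation marker. The cell sums held 7369437 to 14358854 gene counts per set. Median counts per cell mostly followed the set number, from 436986 in U0126 set 4 to 1221260 in control set 2. Pair 2 was an exception, since U0126 set 2 had 642281. Gene counts per ERCC spike-in count also followed the set number more than the group, from 43.9 in U0126 set 1 to 128 in U0126 set 4. Neither measure, nor detected genes per cell, passed a two-sided exact permutation test within pairs (p = 0.625, 0.75 and 0.25, with 1 in 8 the smallest p that 4 pairs allow). Set 4 of both groups also carries a source label, Pancreas, that differs from that of sets 1 to 3. One cell of U0126 set 4 carried erythroid genes, and the summed erythroid list was at 678.5 CPM there against 3.27 to 54.6 CPM in the other 7 sets.

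No gene passed the genome-wide test within pairs. Of 12632 genes tested with edgeR's quasi-likelihood test with the set number as a block, 0 (0%) had a Benjamini-Hochberg adjusted p under 0.05, and the smallest adjusted p was 0.657. At an unadjusted p under 0.05 there were 702 genes (5.56%), 313 higher and 389 lower with U0126. DESeq2 on the same sums and design called 89 genes (0.705%), 28 higher and 61 lower. Limma on the mean of log2(CPM + 1) over the cells of each set called 1 gene, Pyy. The differences below are therefore given as values of genes that did not pass in edgeR, whose adjusted p was 0.657 or more for each of them, and DESeq2's call is named where it was made. In the background, 949 genes (7.51%) were higher and 990 (7.84%) lower with U0126 in all 4 pairs, and the groups did not overlap for 341 genes (2.7%). The median log2 difference of all genes tested was -0.01.

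**Figure D1:**
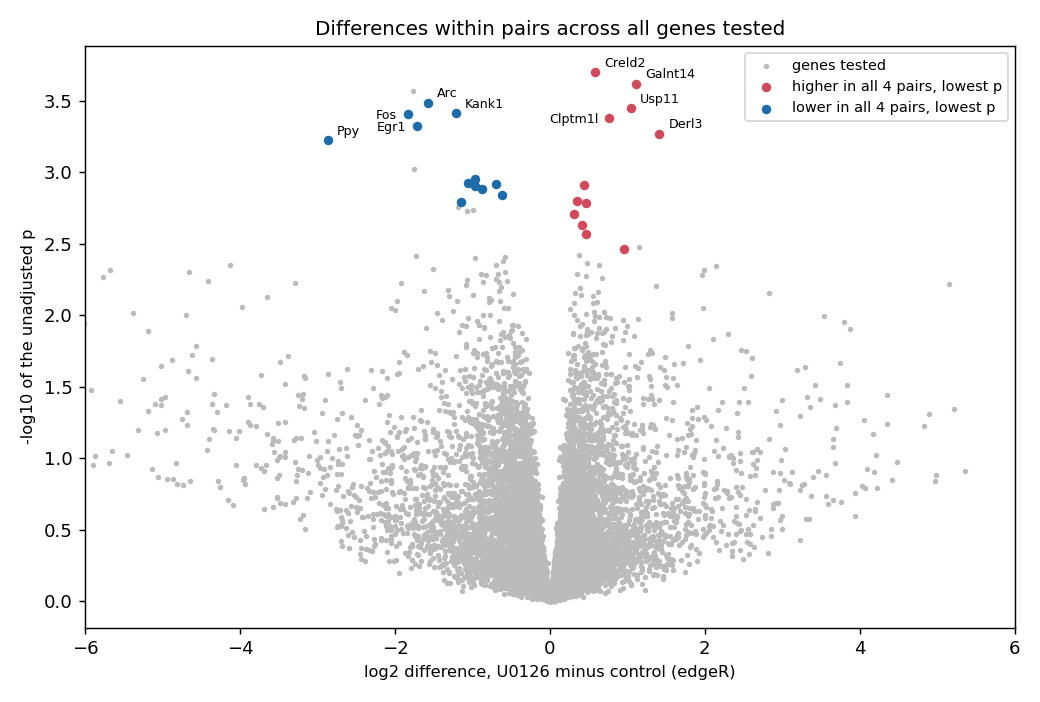
Log2 difference between U0126 and control (x axis) against -log10 of the unadjusted edgeR p (y axis) for the genes tested; 11 genes lie beyond the x axis limits of 6. Coloured points are the 12 genes per direction with the same sign in all 4 pairs and the lowest p, and none of the 12632 genes passed after adjustment.

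Immediate early genes were lower with U0126, over a wide range of levels between sets. Of the 21 genes listed, 19 were tested and 17 had a log2 difference below 0, beside 6479 of all 12632 genes tested. In all 4 pairs 9 were lower, beside 7.84% of all genes. The list's median log2 difference was -0.91, and within each pair the median was -0.67, -0.25, -1.15 and -0.67. None passed in edgeR. An unadjusted p under 0.05 was reached by 7, all lower, beside 389 lower of all 12632 genes. DESeq2 called 5, namely Fos, Fosb, Egr1, Ier2 and Atf3, beside 61 called lower of all 12632 genes.

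Fos, the transcription factor that pairs with Jun in AP-1 (chromosome 12, 85473890 to 85477273, GRCm38), had 34.7, 81.5, 257 and 2218 CPM in control sets 1 to 4. With U0126 it had 11.8, 17.2, 38.3 and 1299 CPM. It was lower in every pair, by 1.83 on the log2 scale in the fit (SE 0.30). The groups overlapped, since set 4 was high in both and U0126 set 3 was above control set 1. Without the block the same log2 difference was -0.92, and the unadjusted edgeR p was 0.54, against 0.00039 with the block. Single cells showed the same order, since Fos reached 100 CPM in 1 of 8, 3 of 12, 12 of 18 and 20 of 20 control cells and in 0 of 7, 1 of 13, 2 of 20 and 20 of 20 U0126 cells. In set 4 the median cell had 1859 CPM in the control and 1123 CPM with U0126.

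Egr1, a zinc finger transcription factor that ERK induces through serum response factor, had 30.1, 42.9, 145 and 690.0 CPM in control sets and 10.6, 16.9, 19.1 and 315 CPM in U0126 sets. Its log2 difference was -1.71 (SE 0.29, lower in 4 of 4 pairs, DESeq2 adjusted p = 6.04e-07). Arc, an activity-induced immediate early gene outside the list, lies on chromosome 15 (74669083 to 74672570). It had 13.2, 39.2, 277 and 977 CPM in the control and 5.42, 7.72, 72.3 and 571 CPM with U0126. Its log2 difference was -1.58 (SE 0.25), it was called by DESeq2, and it reached 100 CPM in 34 of 58 control and 20 of 60 U0126 cells, fewer in each of the 4 pairs. For both genes set 4 was the highest of its group, and the groups overlapped. Without the block the unadjusted edgeR p was 0.27 for Egr1 and 0.48 for Arc. With the block these were 0.00047 and 0.00033, so the small values rest on the pairing.

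The other immediate early genes varied in size and direction. Fosb (-1.63 ± 0.44, log2 difference and SE), Atf3 (-3.29 ± 0.87), Ier2 (-0.91 ± 0.28), Dusp1 (-0.91 ± 0.29), Nr4a1 (-1.21 ± 0.56), Jund (-0.85 ± 0.45) and Srf (-0.53 ± 0.50) were lower in 4 of 4 pairs. Jun (-1.02 ± 0.38), Junb (-0.34 ± 0.15), Btg2 (-0.50 ± 0.22) and Zfp36 (-0.62 ± 0.41) were lower in 3 of 4. Klf4 and Myc had differences above 0 with SEs of 1.33 and 1.71, at sums of at most 22.99 CPM in any set. Atf3 and Nr4a1 were also low outside set 4. Atf3 had 3.855, 0.266, 4.30 and 106 CPM in control sets and 0.265, 0.18, 0 and 16.6 CPM in U0126 sets. Nr4a1 had 0.964, 1.13, 5.37 and 134 CPM in control sets and 0, 0.18, 2.24 and 130 CPM in U0126 sets. Fosb fell to 0.265 CPM in U0126 set 1. The summed level of the list was 467, 846, 1831 and 8099 CPM in control sets 1 to 4 and 443, 541, 722 and 4951 CPM in U0126 sets. Set 4 was thus the highest in both groups, and the spread between sets was larger than the difference within any pair. With sets 1 and 2 alone the list's median log2 difference was -0.59, and with sets 3 and 4 alone it was -0.88.

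**Figure D2:**
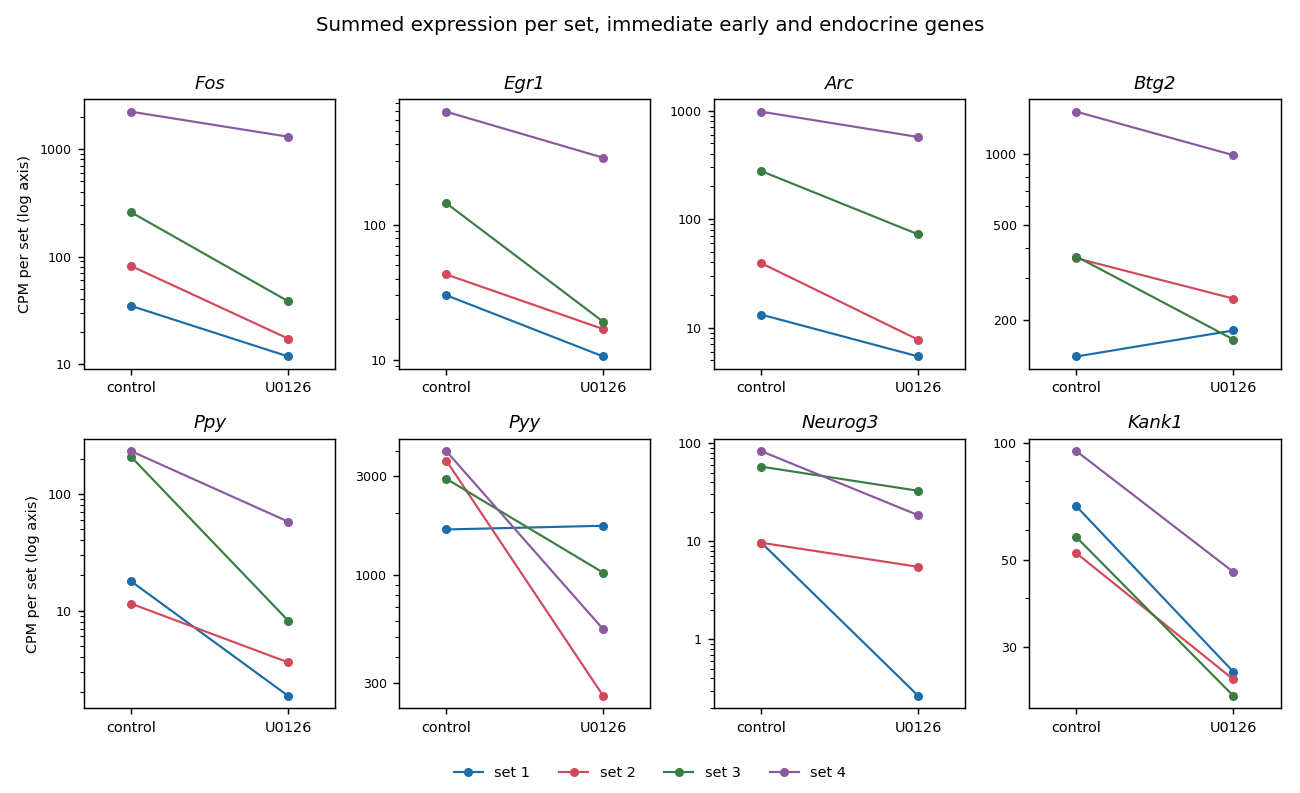
CPM per set (y axis, log scale) of 4 immediate early genes, 3 endocrine genes and Kank1 in control and U0126 sets, with lines joining sets of the same number. Fos, Egr1, Arc, Ppy, Neurog3 and Kank1 were lower in 4 of 4 pairs, and Btg2 and Pyy in 3 of 4.

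Feedback and output genes of the ERK pathway were near the detection limit in these cells and mostly lower with U0126. Of 20 listed, 12 were tested and 11 had a log2 difference below 0, beside 6479 of all 12632 genes tested. These 11 include Phlda1 (-0.009 ± 0.32) and Dusp7 (-0.32 ± 0.70), each lower in 2 of 4 pairs. The gene above 0 was Ccnd1 (2.99 ± 2.42), higher in 3 of 4 pairs at sums of at most 8.60 CPM in any set. Of the 12, 4 were lower in all 4 pairs, beside 7.84% of all genes, and the list's median log2 difference was -1.33. The median within pairs 1 to 4 was -0.93, -1.07, -0.94 and 0.06, so pair 4 did not share the direction. With sets 3 and 4 alone the median log2 difference was -0.62. DESeq2 called 0 of the 12. In edgeR 1, Spred3, had an unadjusted p under 0.05, beside 389 lower of all 12632 genes.

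Etv5, an ETS factor that ERK signalling induces (chromosome 16, 22381309 to 22439719), had 17.9, 23.9, 30.3 and 20.01 CPM in control sets and 0, 6.02, 14.99 and 22.3 CPM in U0126 sets. Its sum was lower in 3 of 4 pairs, with a log2 difference of -1.86 (SE 1.07). It reached 100 CPM in 7 of 58 control cells and 1 of 60 U0126 cells. The shares per set did not overlap, at 12.6% ± 2.9 against 1.25% ± 2.5 (SD, n = 4 sets), with p = 0.0286 in a two-sided exact permutation test of 4 sets against 4 and 1 in 8 within pairs, both the smallest these tests allow. Adjusted over the 23 shares tested, the values were 0.329 and 0.958. After each cell was thinned to 234134 counts, the cells were 6 and 2 and the exact p was 0.2. At 10 CPM they were 13 and 9, the shares overlapped, and the exact p was again 0.2.

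The other feedback genes were low. Dusp5, a nuclear ERK phosphatase, was the most abundant, at 23.2, 34.6, 55.4 and 91.4 CPM in control sets against 20.4, 18.1, 47.5 and 79.3 CPM with U0126. Dusp4 (-2.56 ± 1.11), Etv1 (-1.46 ± 0.74), Spry2 (-0.84 ± 0.70) and Dusp5 (-0.39 ± 0.23) were lower in 4 of 4 pairs. Dusp6, the cytoplasmic ERK phosphatase often used as a pathway readout, had at most 10.1 CPM in a control set and 24.3 CPM in U0126 set 4, and its log2 difference was -1.19 ± 1.02. Etv4, Spry1 and Spry3 were at or below 0.391 CPM in every set. All 25 genes listed as kinases and adaptors of the cascade itself were tested, of which Ksr1, Frs3 and Gab1 were near 0 in some sets. The list's median log2 difference was -0.03. In all 4 pairs 2 of 25 genes were higher and 2 lower, beside 7.51% and 7.84% of all genes. Summed over that list, the sets ran from 2142 to 2379 CPM in the control and 2289 to 2362 CPM with U0126.

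**Figure D3:**
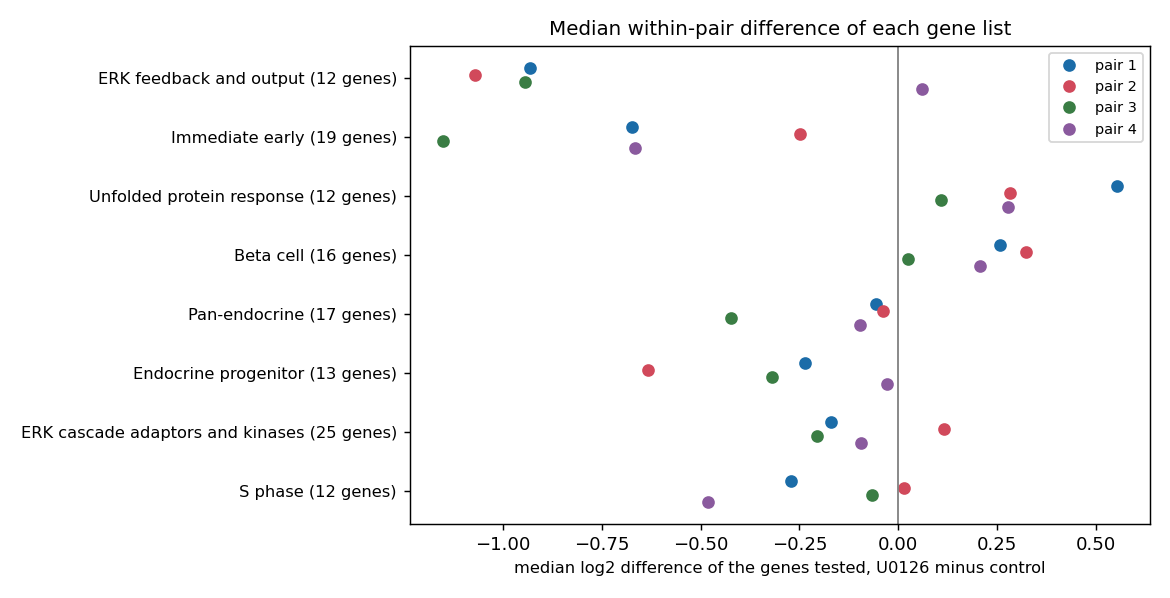
Median log2 difference of the genes tested in 8 lists (x axis), 1 point per pair. The immediate early medians were below 0 in all 4 pairs and those of the unfolded protein response above 0, while the ERK feedback median of pair 4 was 0.06.

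Genes of the endoplasmic reticulum stood among the higher genes with U0126. The unfolded protein response raises chaperones and folding enzymes when proteins load the endoplasmic reticulum. All 12 genes of that list were tested and 10 had a log2 difference above 0, beside 6153 of all 12632 genes tested. In all 4 pairs 6 were higher, beside 7.51% of all genes. DESeq2 called 4, Hspa5, Hsp90b1, Sdf2l1 and Creld2, beside 28 called higher of all 12632 genes. The list's summed level was 6371, 7713, 7603 and 8104 CPM in control sets and 10030, 9551, 8895 and 10570 CPM in U0126 sets, so the groups did not overlap. Hspa5 and Hsp90b1 made up much of that sum and did not overlap by themselves. They had 2157 and 1013 CPM in control set 1 and 3767 and 1944 CPM in U0126 set 1. The sum therefore says little about the other members. The list's median log2 difference was 0.24. The 2 genes below 0 were Trib3 (-0.67 ± 0.45) and Atf4 (-0.04 ± 0.12), and the stress-linked factor Ddit3 was at 0.17 ± 0.33. Xbp1 (0.15 ± 0.12) was higher in 3 of 4 pairs. Dnajb9 (0.17 ± 0.13) and Herpud1 (0.10 ± 0.12) were higher in 2 of 4.

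The ER stress response element, searched as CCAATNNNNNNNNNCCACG on both strands, marks promoters of such chaperone genes. The promoters of 4 genes that were higher in all 4 pairs are shown because each holds a match, which is in capitals. They are the 250 bases before the RefSeq start site (GRCm38.p6), 5′ to 3′ along the gene: Hspa5 at chr2:34771840-34772089 (+), Creld2 at chr15:88819396-88819645 (+), Hsp90b1 at chr10:86705445-86705694 (-) and Derl3 at chr10:75893148-75893397 (+).
Hspa5: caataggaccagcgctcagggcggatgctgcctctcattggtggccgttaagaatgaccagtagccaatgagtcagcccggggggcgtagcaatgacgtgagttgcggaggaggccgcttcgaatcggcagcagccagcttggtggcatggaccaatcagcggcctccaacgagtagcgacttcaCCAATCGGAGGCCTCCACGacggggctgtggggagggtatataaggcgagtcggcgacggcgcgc
Creld2: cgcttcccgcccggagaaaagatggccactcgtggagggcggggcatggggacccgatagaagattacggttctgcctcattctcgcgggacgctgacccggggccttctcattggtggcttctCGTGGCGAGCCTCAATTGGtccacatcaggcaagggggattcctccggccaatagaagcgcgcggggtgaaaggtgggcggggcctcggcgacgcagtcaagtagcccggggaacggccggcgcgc
Hsp90b1: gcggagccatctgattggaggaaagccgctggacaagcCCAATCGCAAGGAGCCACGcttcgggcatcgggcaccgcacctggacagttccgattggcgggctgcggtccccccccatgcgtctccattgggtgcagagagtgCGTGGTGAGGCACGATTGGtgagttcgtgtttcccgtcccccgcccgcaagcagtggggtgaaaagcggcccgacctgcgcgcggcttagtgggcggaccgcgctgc
Derl3: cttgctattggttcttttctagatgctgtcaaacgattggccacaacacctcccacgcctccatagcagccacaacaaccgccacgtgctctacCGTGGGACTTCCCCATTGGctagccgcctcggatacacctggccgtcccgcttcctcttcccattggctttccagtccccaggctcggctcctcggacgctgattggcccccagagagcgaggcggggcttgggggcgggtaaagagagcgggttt
The matches start 65 bases before the start site in Hspa5, 156 in Derl3, and 212 and 107 in Hsp90b1. A match was present in 35 of 27025 promoters (0.13%), and in 4 of 12 of the unfolded protein response list, the fourth being Dnajc3. This motif was chosen after the values were seen, and a match describes the sequence only. RefSeq gave promoters for 17 of the 21 immediate early genes. Of these, 0 held the ETS motif CCGGAAGT (3.23% of all promoters), 0 the AP-1 motif TGACTCA (5.16%) and 3, Egr2, Srf and Zfp36, the CArG motif that serum response factor binds (1.62%), each on either strand. Of the 10 rule genes that were higher and had a promoter, 3 (Ddost, Ikbkg and Usp11) held the ETS motif and 2 (Hspa5 and Ikbkg) the AP-1 motif. Of the 8 that were lower, 0 held the ETS motif and 1, Cldn4, the AP-1 motif.

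Creld2, a chaperone-like protein secreted on endoplasmic reticulum stress, had 486.5, 438, 416 and 464.5 CPM in control sets and 743, 620.4, 609.9 and 743 CPM in U0126 sets. Every U0126 set was above every control set, and the log2 difference was 0.59 (SE 0.09). It had the lowest unadjusted p of all the genes that met the rule for naming, with an edgeR adjusted p of 0.657 and a DESeq2 adjusted p of 6.04e-07. Hspa5, the chaperone BiP, had 2157, 2846, 2652 and 2783 CPM in the control and 3767, 3655, 3116 and 3916 CPM with U0126. It too did not overlap between groups, at a log2 difference of 0.47 (SE 0.10). Derl3, a channel component of endoplasmic reticulum-associated degradation, had 31.7, 68.8, 52.5 and 59.3 CPM in the control and 151, 116, 138 and 144 CPM with U0126, a log2 difference of 1.41 (SE 0.25), and was called by DESeq2.

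Further endoplasmic reticulum genes were also higher in 4 of 4 pairs, which the rule for naming required of those it took. Log2 differences, with SEs, were 0.31 ± 0.07 for Pdia3, a disulfide isomerase, 0.35 ± 0.07 for Ddost, a subunit of the oligosaccharyltransferase, and 0.42 ± 0.09 for Dnajb11, a co-chaperone of BiP, and DESeq2 called all 3. Hsp90b1 (0.48 ± 0.12), Sdf2l1 (0.63 ± 0.16), Pdia4 (0.32 ± 0.09) and Dnajc3 (0.31 ± 0.11) were the list's other members with this pattern, and DESeq2 did not call the last 2. Manf, a neurotrophic factor of the endoplasmic reticulum in no list and named after its values were seen, was at 0.38 ± 0.09 and called by DESeq2. Pair 1 had the largest difference for Hspa5, Hsp90b1 and Sdf2l1.

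**Figure D4:**
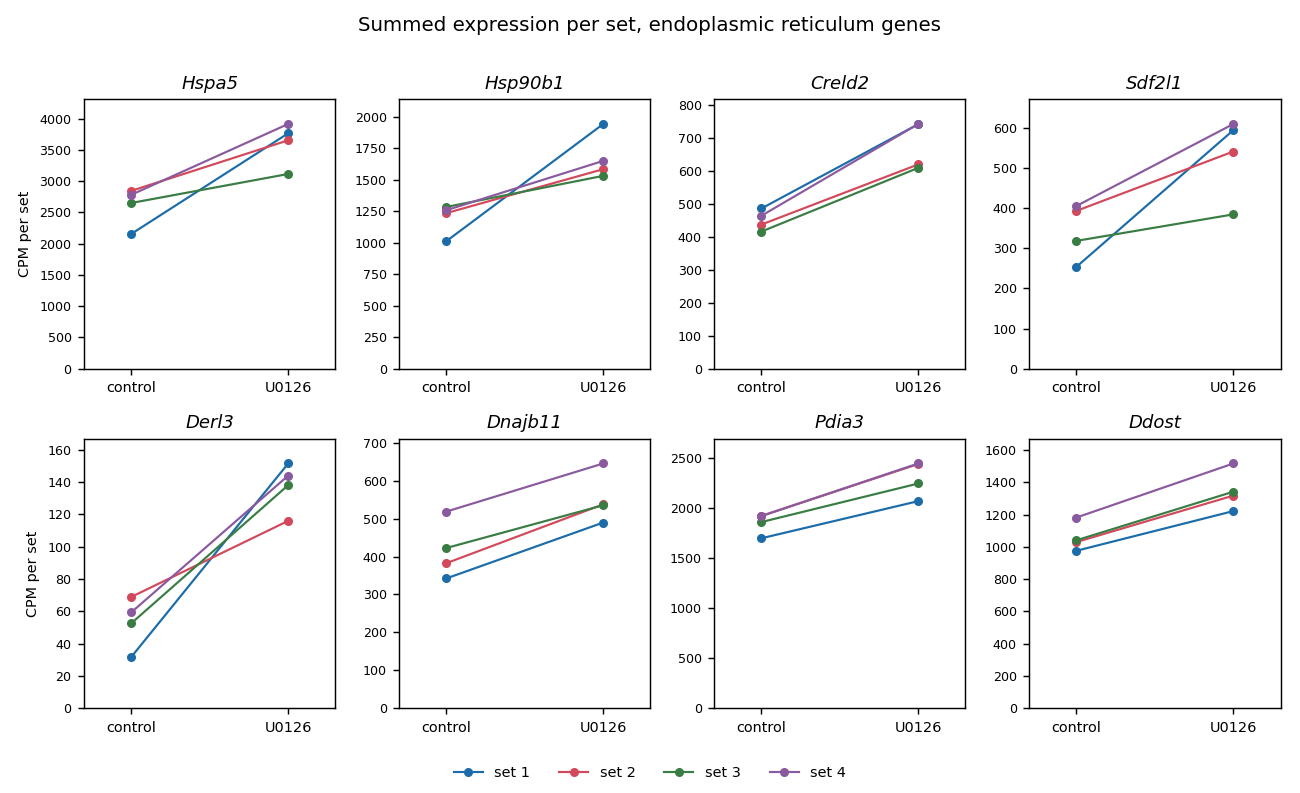
CPM per set (y axis, from 0) of 8 endoplasmic reticulum genes in control and U0126 sets, with lines joining sets of the same number. All 8 were higher with U0126 in each of the 4 pairs. The rule for naming required this of the genes it took, and the others were list members picked with their values known.

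The remaining genes named by the rule had no common list. Higher in 4 of 4 pairs were Galnt14 (1.11 ± 0.17), a glycosyltransferase, Usp11 (1.04 ± 0.17), a deubiquitinase, Clptm1l (0.77 ± 0.13), Rac1 (0.47 ± 0.11), a small GTPase, Ikbkg (0.95 ± 0.23), the regulatory subunit of the IκB kinase complex, and Sytl4 (0.44 ± 0.09), a Rab27 effector of insulin granules. DESeq2 called these 6 but for Ikbkg. Lower in 4 of 4 pairs were Kank1 (-1.21 ± 0.20), Strn3 (-0.97 ± 0.19), Sgk2 (-1.06 ± 0.21), Cldn4 (-0.69 ± 0.14), Qsox1 (-0.96 ± 0.19), Tbc1d8 (-0.88 ± 0.18), Grina (-0.62 ± 0.13) and Cgrrf1 (-1.15 ± 0.24), all called by DESeq2. Kank1, an adaptor at the cell cortex, had 68.8, 52.2, 57.3 and 95.2 CPM in the control and 25.9, 24.8, 22.5 and 46.7 CPM with U0126. Cldn4 is a tight junction claudin and Qsox1 a sulfhydryl oxidase of the secretory pathway.

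Pyy and Ppy, neighbouring genes of the neuropeptide Y family on chromosome 11, were lower with U0126. Pyy (102106676 to 102107832) had 1662, 3575, 2921 and 3972 CPM in control sets and 1732, 260.2, 1027 and 547 CPM in U0126 sets. Its summed level was thus lower in pairs 2, 3 and 4 and about equal in pair 1, and the log2 difference was -2.05 (SE 0.59). A sum cannot tell fewer expressing cells from less RNA per cell, and the cells were therefore counted. Pyy reached 100 CPM in 7 of 8, 11 of 12, 15 of 18 and 17 of 20 control cells and in 4 of 7, 6 of 13, 14 of 20 and 10 of 20 U0126 cells.

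The Pyy shares did not overlap, at 86.9% ± 3.6 in the control and 55.8% ± 10.49 with U0126 (SD, n = 4 sets). The p was 0.0286 in a two-sided exact permutation test of 4 sets against 4 and 1 in 8 within pairs, the smallest each allows, and 0.329 and 0.958 after adjustment over 23 shares. Pyy, like Fos, Arc and Npy, was among 8 genes added to those shares after the values were seen. Thinned to equal depth the shares were 82.4% and 55.8%, again without overlap. At 10 CPM they were 94.1% and 80.8%, the sets overlapped, and the exact permutation p for 4 sets against 4 was 0.0857. Limma on log2(CPM + 1) averaged over cells gave a difference of -2.62 (SE 0.30, adjusted p = 0.0139), the 1 call by that test. Among single cells the median was 1269, 1378, 2512 and 964 CPM in control sets and 1165, 96.2, 586 and 179 CPM in U0126 sets.

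**Figure D5:**
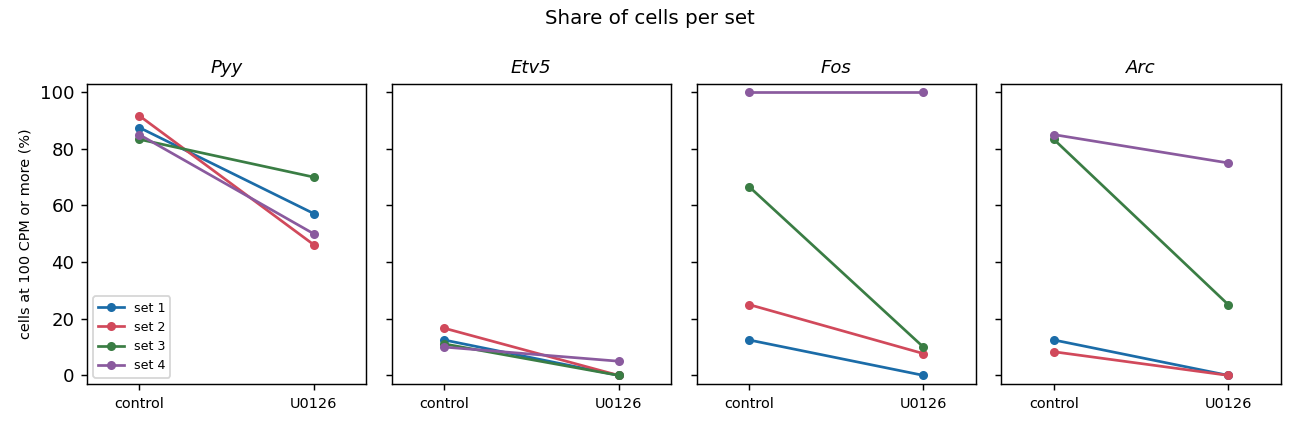
Percentage of cells per set at 100 CPM or more (y axis) for Pyy, Etv5, Fos and Arc in control and U0126 sets, with lines joining sets of the same number. The Pyy and Etv5 shares of the 2 groups do not overlap, while the Fos share was 100% in set 4 of both.

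Ppy, which encodes pancreatic polypeptide (102099930 to 102101319), had 17.8, 11.4, 207.5 and 232 CPM in control sets and 1.85, 3.59, 8.19 and 57.8 CPM in U0126 sets. It was lower in 4 of 4 pairs, with a log2 difference of -2.87 (SE 0.51), and was called by DESeq2. Few cells carried these sums: 1 cell gave 93.8% of the Ppy of control set 3, and 4 of 58 control and 2 of 60 U0126 cells reached 100 CPM. Each of those cells also reached 100 CPM of Pyy. Averaged over cells, the log2 difference was -0.82 with a limma adjusted p of 0.692.

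Npy, the third family member here, went the other way in 3 of 4 pairs. It had 41.1, 35.99, 1140.0 and 71.3 CPM in control sets and 216, 960.0, 343.5 and 644 CPM in U0126 sets, with a log2 difference of 2.42 (SE 1.03). Single cells carried much of these sums, with 1 cell giving 40.7% to 75.3% of the Npy of each control set and 25.9% to 96.1% of that of each U0126 set. Control set 3 was far above the other control sets. The share of cells at 100 CPM was 25.8% ± 17.6 in the control and 37.6% ± 15.6 with U0126 (SD, n = 4 sets, higher in 2 of 4 pairs, two-sided exact permutation p = 0.371).

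Neurog3 was low in both groups, while the endocrine progenitor list as a whole summed to 666.5 to 962.5 CPM per set. Neurog3, the factor that starts endocrine commitment (chromosome 10, 62133090 to 62134763), had 9.64, 9.64, 57.5 and 82.7 CPM in control sets and 0.265, 5.48, 32.7 and 18.4 CPM in U0126 sets. It was lower in 4 of 4 pairs, by 1.84 on the log2 scale (SE 0.62), and was called by no tool. Single cells gave 78.5% of the Neurog3 sum in control set 1 and 74.0% in control set 4, and 50.1% to 69.6% in the U0126 sets. Averaged over cells by limma the log2 difference was -0.92. Neurog3 reached 100 CPM in 4 of 58 control and 3 of 60 U0126 cells. At 10 CPM the cells were 18 and 11, fewer in each pair (two-sided exact permutation p = 0.0857 for 4 sets against 4 and 1 in 8 within pairs). Insm1, a zinc finger factor downstream of Neurog3 (-0.46 ± 0.16), and Tox3 (-0.34 ± 0.17) were also lower in 4 of 4 pairs, and Mfng, a Notch-modifying glycosyltransferase, was higher (0.59 ± 0.19). These were 3 lower and 1 higher of 13 progenitor genes tested, beside 7.84% and 7.51% of all genes. Of 9 late endocrine precursor genes tested, 1, Runx1t1 (-0.75 ± 0.26), was lower in all 4 pairs, beside 7.84% of all genes.

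Most beta cell genes had log2 differences near or slightly above 0, and none passed in edgeR. Ins1 had 24830, 20600, 26160 and 17440 CPM in control sets and 21190, 31090, 21820 and 26840 CPM in U0126 sets, a log2 difference of 0.18 (SE 0.16). Ins2 was at 0.07 (SE 0.10) and Pdx1, the pancreatic and beta cell homeodomain factor, at -0.01 (SE 0.10). Iapp, which encodes the co-secreted amylin, had 17910, 18790, 21980 and 21510 CPM in the control and 22740, 25730, 22300 and 23110 CPM with U0126, without overlap and with a log2 difference of 0.23 (SE 0.08). Slc2a2, the glucose transporter GLUT2 (0.39 ± 0.12), Slc30a8, the granule zinc transporter (0.24 ± 0.11), and Sytl4 were, like Iapp, higher in all 4 pairs. They were the other 3 of 16 tested beta cell genes with this pattern, and 0 were lower, beside 7.51% and 7.84% of all genes. The list's median log2 difference was 0.22.

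The pan-endocrine list holds granule proteins and transcription factors that endocrine cells share. Of its 17 genes tested, 4 were lower in all 4 pairs and 0 higher, beside 7.84% and 7.51% of all genes, with a median log2 difference of -0.12. Pcsk1n, an inhibitor of prohormone convertase 1, had 725, 626, 627 and 757 CPM in the control and 428, 610.0, 363 and 453 CPM with U0126. The groups did not overlap, the log2 difference was -0.58 (SE 0.14), and DESeq2 called it. The granule proteins Scg5 (-0.35 ± 0.11) and Scg2 (-0.34 ± 0.12) and the transcription factor Insm1 were the other 3, and Chga was at -0.07 ± 0.14. Cell cycle genes were low, and 4 S phase or 4 G2/M genes reached 100 CPM in 0 cells of either group. At 10 CPM, 4 S phase genes were reached in 41 of 58 control and 40 of 60 U0126 cells, and 4 G2/M genes in 0 and 1. These counts thus follow the level chosen and give no share of cycling cells. The S phase list's median log2 difference was 0.04.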

How the data were processed

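Smart-seq2 libraries of single Ins1-RFP+ explant cells were read from the deposited table of raw read counts, which the authors made on mm10; TopHat2 2.1.0, Bowtie2 and HTSeq 0.6.0 are listed in the submitters' processing notes, without roles. The annotation is not given in the sources used here, and PCR reads carried no molecular identifiers. The table held 40824 genes and 92 ERCC rows, which were left out of totals; 2077 columns of other cells were not used. Members and gene lists were chosen with earlier results of these data known.

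Counts were summed per set (7 to 20 cells) and scaled to CPM with TMM. Genes passing filterByExpr were tested with edgeR 4.0.16 (R 4.3.3) with the set number as a block and Benjamini-Hochberg adjustment at 0.05. Standard errors are the log2 difference over the root of F. DESeq2 1.42.0, limma 3.58.1 and the other alternatives are in the closing section. Scripts were tested on simulated data. Shares of cells used exact permutation tests (scipy 1.17.1).

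The block follows the definition of the comparison. Deviations from group means of same-numbered sets correlated by 0.106, 0.0667, 0.0836 and 0.188 across genes, not above 0.1 in every pair, so the labels and data do not establish that the numbers pair the sets. Named genes averaged 50 CPM or more in either group, with the same sign in 4 pairs; as none passed, the 12 of lowest p per direction were taken, plus the ERK feedback and immediate early lists. Other list members were named after their values were seen. Positions are GENCODE on GRCm38.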

Additional observations from a re-analysis of the deposited data

Results flagged for a closer look

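Among 164 groups of 4 sets (82 named genes in 2 groups), 26 had a highest or lowest set apart from the other 3. The gap over the group's range was above Dixon's 95% limit. That limit flags about 1 in 20 groups only for normal, independent values. Here CPM were not put on a log scale and genes can vary together, so no chance rate is given. U0126 set 4 accounted for 12 of the 26 and control set 4 for 6, each the highest of its group. With U0126, set 4 had 571 CPM of Arc, 1299 CPM of Fos, 315 CPM of Egr1, 79.8 CPM of Fosb, 263 CPM of Jun, 16.6 CPM of Atf3, 2.54 CPM of Klf2, 985 CPM of Btg2, 130 CPM of Nr4a1, 323 CPM of Dusp1, 57.8 CPM of Ppy and 46.7 CPM of Kank1. In the control, set 4 had 2218 CPM of Fos, 157 CPM of Fosb, 106 CPM of Atf3, 1498 CPM of Btg2, 134 CPM of Nr4a1 and 46.8 CPM of Ddit3. Genes of the immediate early list made up 14 of these 18. Set 4 also had the most gene counts per ERCC count and another source label in both groups, and the part of these in the levels was not tested.

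The other sets that stood apart were spread over genes. Control set 1 was lowest for Ikbkg (14.6 CPM) and Xbp1 (352 CPM), and control set 3 for Slc2a2 (209 CPM) and Slc30a8 (116.5 CPM), while U0126 set 3 was also lowest for Slc30a8 (130.2 CPM). Control set 3 was highest for Npy (1140.0 CPM), U0126 set 2 for Spry2 (12.4 CPM) and U0126 set 1 for Ddit3 (53.03 CPM).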

How the results depend on the processing

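What a set stands for is not labelled, 4 pairs limit every test, and low genes rest on few cells. The edgeR count of called genes stayed at 0 with RLE size factors, no replicate block, no low-count filter (21961 genes, smallest adjusted p = 0.179), without the cell of another type, and without any 1 pair (0 to 0), while 436 to 934 genes had an unadjusted p under 0.05 in these fits. DESeq2 gave 89 and limma on per-cell means 1; the cause was not tested. Removing the replicate block lowered the genes at an unadjusted p under 0.05 from 702 to 436 and changed no call; control set 2 correlated better with U0126 set 1 (0.0716) than with its own number (0.0667). Splitting sets 1 and 2 from sets 3 and 4 was chosen after seeing the data, and gave 0 called genes in each.

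Of 978 values of single genes under 12 alternatives, 911 kept their direction and their side of the threshold, 32 passed only under the alternative and 35 changed sign. None of the genes taken by the rule, and not Pyy, Neurog3 or Iapp, changed sign. The rule asked for the same sign in 4 pairs, which Neurog3 and Iapp also had, so leaving out pairs could hardly reverse them. The ERK feedback median was -0.64 by limma and -0.62 in sets 3 and 4 alone. Without the replicate block, signs changed for Dusp6 (0.16), Phlda1 (0.0144) and Klf4 (-0.44). By limma they changed for Dusp6 (0.0539), Klf6 (0.0319), Atf4 (0.13), Herpud1 (-0.035), Ins2 (-0.0506) and Slc30a8 (-0.52). Without the cell of another type Phlda1 was at 0.0046. With sets 1 and 2 alone the values were 0.0654 for Phlda1, 0.11 for Ier5, 0.26 for Klf6, 0.0122 for Pdx1 and 0.19 for Chga. With sets 3 and 4 alone they were 0.66 for Dusp7, -0.66 for Ccnd1, 0.15 for Ier3, -0.84 for Klf4, -0.57 for Myc, -0.28 for Ddit3, 0.10 for Atf4, -0.0104 for Dnajb9 and -0.0213 for Ins2. Leaving out 1 pair, the ranges were -0.81 to 0.0683 for Dusp7, -0.0719 to 0.11 for Phlda1, -1.50 to 0.0112 for Ier3, -0.41 to 0.0058 for Ier5, -0.55 to 1.11 for Klf4, -0.14 to 0.42 for Ddit3, -0.11 to 0.0913 for Atf4, -0.0578 to 0.15 for Ins2, -0.0484 to 0.0512 for Pdx1 and -0.23 to 0.086 for Chga. The cause of these changes was not tested.

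Mean pair differences in the share of cells, in percentage points, moved at a level of 10 CPM to -14.3 for Neurog3, -9.69 for Gcg, -16.3 for Ppy, -13.3 for Pyy (from -31.1), -5.14 for Spry4, -8.71 for S phase and 1.25 for G2/M cells. After thinning, that of Etv5 was -6.25.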

Other observations

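Genes of the alpha cell list mostly had log2 differences below 0, as did the 2 of 8 liver genes that were tested, Ttr and Afp. None passed in edgeR, and Ttr is in both lists. Ttr, the thyroid hormone carrier transthyretin, had 1374, 1855, 1893 and 1403 CPM in control sets and 1438, 1113, 553.5 and 1250.0 CPM with U0126, a log2 difference of -0.64 (SE 0.27). Afp, alpha-fetoprotein, was low but lower in 4 of 4 pairs, at 3.75, 25.01, 4.98 and 23.4 CPM in the control and 0, 4.67, 0.0862 and 5.08 CPM with U0126, and DESeq2 called it. Of 10 alpha cell genes tested, 9 had a log2 difference below 0, beside 6479 of all 12632 genes tested. In all 4 pairs 1, Pou3f4, was lower, beside 7.84% of all genes. The alpha cell list's median within pairs 1 to 4 was 0.19, -0.73, -0.76 and -0.18.

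Genes of nucleolar growth and polyamine synthesis tended the other way, with 10 of 12 above 0, beside 6153 of all 12632 genes tested. In all 4 pairs 4 were higher (Srm, Ncl, Npm1 and Polr1b), beside 7.51% of all genes. The 1 lower in all 4 pairs (Nop56) stood beside 7.84% of all genes. Ncl, nucleolin, had 276.5, 238, 211 and 195 CPM in control sets and 318, 265, 288 and 212 CPM with U0126. Neither edgeR nor DESeq2 called any of the 12. These genes were picked out after their values were seen.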
